A study of Homo sapiens with 6 samples.

Results

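The E2F transcription factors and, of the pocket proteins that bind them, RBL1 and RBL2 alone were followed in LNCaP cells. These are an established line of androgen-responsive human prostate adenocarcinoma. Members were the 10 genes E2F1 to E2F8, RBL1 and RBL2, each read through every probe set whose single listed gene symbol is one of these names. This gave 26 probe sets of the 45253 with a single symbol, and 10 of the 18239 genes those probe sets cover. Every member gene had at least 1 probe set, and no filter on low values was applied. Total RNA was hybridized to Affymetrix U219 arrays, 3 from control cells and 3 from cells given 40 µM urolithin A, a compound that gut bacteria form from the ellagic acid of foods such as walnuts and pomegranates, and both groups were kept for 24 h in F12 medium with fetal bovine serum. Control cells are called untreated in the titles and saline-treated in the treatment protocol, and the solvent of urolithin A is not given. Whether a group's arrays stand for separate cultures is not stated, so p-values measure array-to-array spread that may be technical.

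E2F factors bind promoters of cell cycle genes, most of them as dimers with a DP protein. E2F1, E2F2 and E2F3 are known as activators that drive entry into S phase, whereas E2F4 and E2F5 act with pocket proteins as repressors in resting cells, E2F6 represses through polycomb proteins, and the atypical factors E2F7 and E2F8 repress without a DP partner. The pocket proteins RBL1, also called p107, and RBL2, also called p130, hold E2F4 or E2F5 on promoters together with the MuvB core in the DREAM complex, until cyclin-dependent kinases phosphorylate them. RBL2 is best known from quiescent cells, and RBL1, E2F1, E2F2, E2F7 and E2F8 are themselves known targets of E2F.

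All values are on a log2 scale and relative to the controls' median, which the deposited table sets to 0 in every probe set. They show differences between arrays and hold no levels, so neither the abundance of one member against another nor the presence of prostate markers could be examined; of 7 luminal prostate markers measured, 3 fell and 1 rose. Per array, a gene's probe sets were averaged into 1 value, values are listed in the order of replicates 1, 2 and 3, and the change of a gene was the urolithin A mean minus the control mean. A gene passed when the adjusted p of limma's moderated test was under 0.05, with Benjamini-Hochberg adjustment over all 18239 genes. Array medians over all probe sets were 0 in the controls and between -0.0013 and 0.014 with urolithin A. The 18S ribosomal RNA probe sets lay at -0.45 in control replicate 3 and -0.48 in urolithin A replicate 3, and the other arrays lay between -0.22 and 0.05. Of 11 leukocyte marker genes 10 were measured and none passed in limma (1 had an unadjusted p under 0.05). HLA-DRA was nonetheless raised in control replicate 1 at 1.01, urolithin A replicate 2 at 1.17 and urolithin A replicate 3 at 3.09. The markers did not all move with it. In urolithin A replicate 3, HLA-DRB1 read 1.74 and CD74 0.91, but CD79A 0.06 and CD3E -0.05. In control replicate 1, HLA-DRB1 read 0.33 and MS4A1 -0.09. The mean of the marker list ran from -0.02 to 0.18 in the controls and from 0.00095 to 0.89 with urolithin A. None of 7 stromal markers passed (0 had an unadjusted p under 0.05), with list means between -0.03 and 0.06 on the 6 arrays. The part of these array differences in the results was not tested, and results without the arrays concerned are given beside the calls.

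After urolithin A, RBL2 rose and E2F8, E2F1 and E2F4 fell, and the remaining 6 members did not pass. These 4 changes were between 1.22-fold and 1.46-fold in size. Of all genes 10.2% passed, 5.31% as lower and 4.85% as higher, against 4 of the 10 members, 3 of them lower and 1 higher. At an unadjusted p under 0.05, 4 members were lower and 1 was higher, beside 11.5% and 12.5% of all genes, so the single higher member is near the share over all genes. The 2 groups were fully separated in 7 of the 10 members, with all 3 treated arrays below every control in 6 and above every control in 1, where 29.3% of all genes had groups without overlap, 13.7% below and 15.6% above. Tested as single probe sets, 3 of the 26 passed as lower and 3 as higher, beside 4.44% and 4.06% of all probe sets, and 13 of the 26 had groups without overlap, beside 28.1% of all. Ordered by their change, the members ran from E2F8 at -0.55 through E2F1 at -0.41, E2F4 at -0.29, E2F2 at -0.28, RBL1 at -0.21, E2F5 at -0.14, E2F6 at -0.11, E2F7 at -0.04 and E2F3 at 0.06 to RBL2 at 0.46. Neighbours in this order had overlapping 95% intervals, except E2F3, which reached up to 0.22, and RBL2, which began at 0.31.

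**Figure D1:**
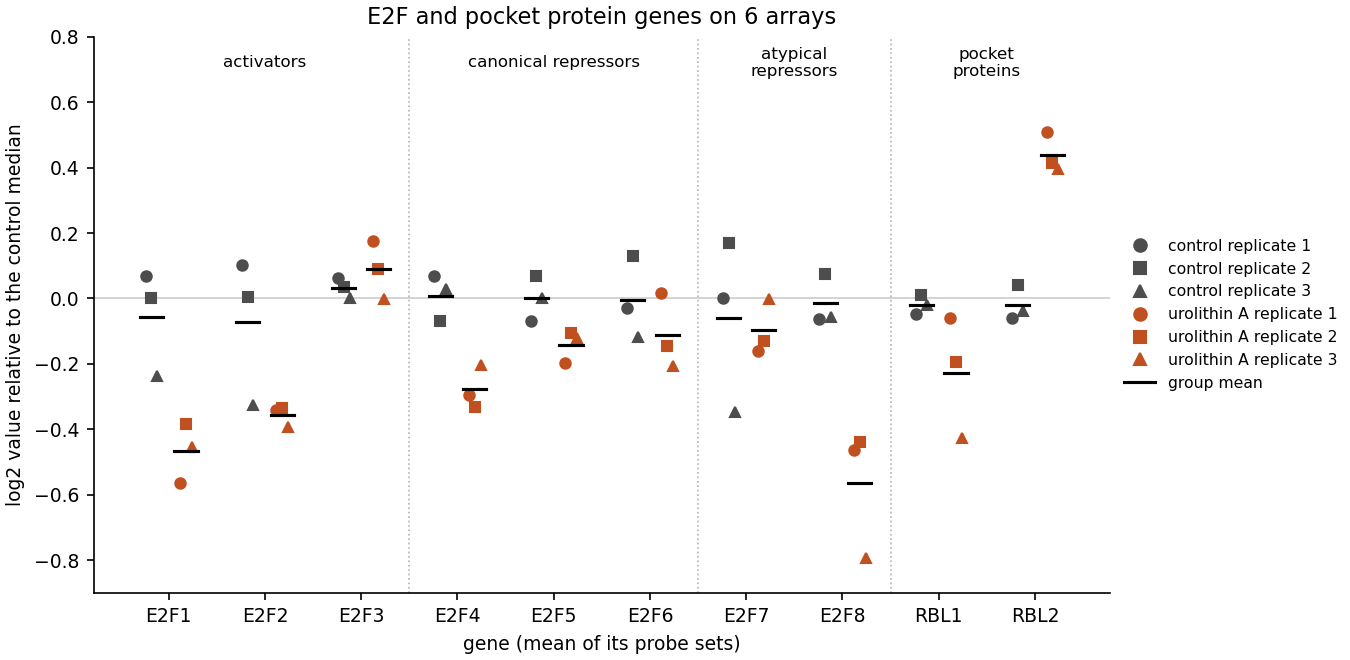
Log2 value relative to the control median (vertical axis) of each member gene on the 3 control arrays (grey) and 3 urolithin A arrays (orange), with marker shapes for replicate numbers and bars for group means. RBL2 lies between 0.39 and 0.51 on the urolithin A arrays and between -0.06 and 0.04 on the control arrays, while E2F1, E2F4 and E2F8 lie below all their controls.

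Promoters are shown here for members that rose, fell or, as E2F3, did neither, because some members are known targets of E2F themselves. The sequences are RefSeq's, build GRCh38.p14, and cover the 250 bases before an annotated gene start, 5′ to 3′ on the gene's strand. The promoters searched were those of E2F1, E2F2, E2F3, E2F4, E2F6, E2F7, RBL1 and RBL2, with a pair of starts each for E2F3 and RBL2. E2F5 was set aside and no promoter of E2F8 was available, so neither was searched. Searched on both strands were 5 spellings of the E2F motif (TTTCCCGC, TTTGGCGC, TTTCGCGC, TTTGCCGC and TTCCCGCC, the first and last of which can overlap), the CHR element that MuvB reads (TTTGAA and TTCGAA) and the CCAAT box. Capitals mark matches to any of them.
E2F1: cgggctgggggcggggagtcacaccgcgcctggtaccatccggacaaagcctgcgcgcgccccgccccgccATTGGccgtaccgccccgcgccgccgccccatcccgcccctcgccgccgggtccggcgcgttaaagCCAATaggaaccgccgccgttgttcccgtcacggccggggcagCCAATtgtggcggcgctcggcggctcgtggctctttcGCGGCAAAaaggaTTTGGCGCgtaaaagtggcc
E2F2: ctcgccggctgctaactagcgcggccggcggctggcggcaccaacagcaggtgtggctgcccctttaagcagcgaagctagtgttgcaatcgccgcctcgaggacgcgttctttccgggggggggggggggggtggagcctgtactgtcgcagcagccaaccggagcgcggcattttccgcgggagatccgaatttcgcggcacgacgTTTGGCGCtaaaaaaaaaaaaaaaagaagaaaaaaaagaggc
E2F3, upstream start: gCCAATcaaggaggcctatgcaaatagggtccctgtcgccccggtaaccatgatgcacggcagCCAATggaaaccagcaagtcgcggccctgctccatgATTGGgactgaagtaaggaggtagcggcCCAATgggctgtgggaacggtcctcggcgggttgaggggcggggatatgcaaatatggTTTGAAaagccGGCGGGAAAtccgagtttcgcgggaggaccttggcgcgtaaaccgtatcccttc
RBL1: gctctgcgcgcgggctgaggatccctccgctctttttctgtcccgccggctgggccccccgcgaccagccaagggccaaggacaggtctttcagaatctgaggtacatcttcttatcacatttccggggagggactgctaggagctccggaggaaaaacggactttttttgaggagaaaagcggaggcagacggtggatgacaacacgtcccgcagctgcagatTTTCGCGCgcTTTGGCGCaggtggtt
E2F4: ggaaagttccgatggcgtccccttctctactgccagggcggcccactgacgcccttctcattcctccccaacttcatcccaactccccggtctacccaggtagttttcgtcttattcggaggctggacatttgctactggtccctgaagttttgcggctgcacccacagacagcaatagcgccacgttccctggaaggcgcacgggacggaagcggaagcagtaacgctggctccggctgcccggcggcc
RBL2, upstream start: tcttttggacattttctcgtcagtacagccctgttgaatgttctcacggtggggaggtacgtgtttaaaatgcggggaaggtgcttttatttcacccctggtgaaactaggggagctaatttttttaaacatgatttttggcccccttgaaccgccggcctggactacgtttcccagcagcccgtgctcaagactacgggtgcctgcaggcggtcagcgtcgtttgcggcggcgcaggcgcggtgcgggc
RBL2, downstream start: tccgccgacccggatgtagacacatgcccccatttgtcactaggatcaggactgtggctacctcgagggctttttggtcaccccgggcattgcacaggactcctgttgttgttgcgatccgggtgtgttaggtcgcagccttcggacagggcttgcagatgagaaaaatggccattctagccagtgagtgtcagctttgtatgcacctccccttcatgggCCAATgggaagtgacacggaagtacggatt

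These stretches are chr20:33686386-33686635 on the minus strand for E2F1, chr1:23531234-23531483 on the minus strand for E2F2, chr6:20401629-20401878 on the plus strand for E2F3, chr20:37095998-37096247 on the minus strand for RBL1, chr16:67191905-67192154 on the plus strand for E2F4, and chr16:53434221-53434470 and chr16:53435369-53435618 on the plus strand for RBL2. Among these windows, E2F1's held TTTGCCGC on the reverse strand at positions -33 to -26, counted back from -1 as the last base before the start, and TTTGGCGC at -20 to -13, beside 3 CCAAT boxes. E2F2 held TTTGGCGC at -42 to -35, and RBL1 held TTTCGCGC at -26 to -19 and TTTGGCGC at -16 to -9. At its upstream start, E2F3 held the overlapping pair TTCCCGCC and TTTCCCGC on the reverse strand between -54 and -46, beside a CHR element at -65 to -60 and 4 CCAAT boxes. The downstream start of E2F3, not printed here, held no match of any kind. An E2F motif was found in these 4 of the 8 genes searched. By promoter this was 4 of 10, beside 4.76% of all 35116 promoters of this length. None of these spellings was found in the windows of E2F4, E2F6, E2F7 or RBL2. A CHR element was found in 1 of the 10 promoters, the upstream one of E2F3, beside 14.3% of all promoters. A CCAAT box was found in 4 of the 10 promoters, from 4 of the 8 genes, beside 32.0% of all promoters. A match describes the letters only and does not show binding.

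Among the activators, E2F1 fell 1.33-fold. Its single probe set read 0.07, 0.00 and -0.24 in the controls and -0.56, -0.38 and -0.45 with urolithin A. The groups did not overlap, although control replicate 3 stood nearer to the treated arrays than the other controls did. Means were -0.06 ± 0.16 (SD, n = 3) and -0.47 ± 0.09 (SD, n = 3), with a change of -0.41 (SE 0.09, adjusted p = 0.0278 in limma). The E2F1 call ended without control replicate 1 (change -0.35, adjusted p = 0.092) and control replicate 2 (-0.38, adjusted p = 0.0928), and, on the treated side, without replicate 1 (-0.36, adjusted p = 0.0911) and replicate 3 (-0.42, adjusted p = 0.0655). Scaling to the spiked hybridization controls also ended it (-0.38, adjusted p = 0.278). Without both replicate 3 arrays, those with the lowest 18S signal, the change was -0.51 (adjusted p = 0.0357).

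E2F2, the second activator, was lower on every urolithin A array than on any control and did not pass. It read 0.10, 0.01 and -0.33 in the controls and -0.34, -0.33 and -0.39 with urolithin A. The gap between the groups was narrow, since control replicate 3 lay just above the treated arrays. The change was -0.28 (SE 0.11, adjusted p = 0.145). Without control replicate 3 it was -0.41 and passed (adjusted p = 0.0219). The low value of that array came from 1 of the 2 probe sets, which read -0.64 there and which carries the mark of a probe set shared between transcripts, while the other read -0.01. From the unmarked probe set alone the change of E2F2 was -0.18.

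E2F3, the third activator, did not pass. It read 0.06, 0.04 and 0.00 in the controls and 0.18, 0.09 and -0.00045 with urolithin A, and the groups overlapped. Its change of 0.06 (SE 0.07, adjusted p = 0.697) had a 95% interval from -0.10 to 0.22. All 3 of its probe sets had changes between 0.04 and 0.07, and all 3 carry the shared-transcript mark. Within an array, E2F1 minus E2F3 was between -0.24 and 0.01 in the controls and between -0.74 and -0.45 with urolithin A, a difference between 2 chosen genes that is given without a test.

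Of the canonical repressors, E2F4, the main partner of the pocket proteins in resting cells, fell 1.22-fold. It read 0.07, -0.07 and 0.03 in the controls and -0.30, -0.33 and -0.20 with urolithin A. The treated arrays formed a separate group below the controls. Means were 0.01 ± 0.07 (SD, n = 3) and -0.28 ± 0.07 (SD, n = 3), with a change of -0.29 (SE 0.07, adjusted p = 0.0375 in limma). Taken alone, neither of its 2 probe sets passed, at -0.21 (adjusted p = 0.17) and -0.36 (adjusted p = 0.0702), and the groups did not overlap in either. The E2F4 call was kept only without urolithin A replicate 3 (adjusted p = 0.0493) among the fits lacking an array, and the adjusted p was 0.119, 0.0565 and 0.1005 without control replicates 1, 2 and 3 and 0.103 and 0.116 without urolithin A replicates 1 and 2. It was also lost without both replicate 3 arrays (-0.31, adjusted p = 0.109) and under scaling to the hybridization controls (-0.25, adjusted p = 0.726).

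E2F5, which shares with E2F4 the role of a repressor carried by pocket proteins, read -0.07, 0.07 and 0.00 in the controls and -0.20, -0.10 and -0.12 with urolithin A. The groups lay close together without overlap. Its change of -0.14 (SE 0.07, adjusted p = 0.251) did not pass and rests on 1 probe set. E2F6, which acts without pocket proteins, had overlapping groups, from -0.12 to 0.13 in the controls and from -0.21 to 0.02 with urolithin A. Its change was -0.11 (SE 0.09, adjusted p = 0.542). Its 5 probe sets ran from -0.25 to 0.08, none passed, and the single positive one is the only E2F6 probe set that carries no mark of shared sequence or transcripts.

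The atypical repressors differed from each other in what passed. E2F8 had the largest fall of any member, 1.46-fold. It read -0.06, 0.08 and -0.06 in the controls and -0.46, -0.44 and -0.79 with urolithin A. Urolithin A replicate 3 was the lowest array, and the other treated arrays were also clear of the controls. Means were -0.01 ± 0.08 (SD, n = 3) and -0.57 ± 0.20 (SD, n = 3), with a change of -0.55 (SE 0.10, adjusted p = 0.0125 in limma). Of its 3 probe sets 2 passed, at -0.60 and -0.71, and the remaining probe set was at -0.34 (adjusted p = 0.106). The call was lost without control replicate 2, by a small margin (change -0.50, adjusted p = 0.0502), and held without each other single array. It also held under scaling to the hybridization controls (adjusted p = 0.0478).

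E2F7 read 0.00, 0.17 and -0.35 in the controls, a wider spread than that of any other member, and -0.16, -0.13 and -0.00 with urolithin A. The treated arrays lay inside the control range. The change was -0.04 (SE 0.12, adjusted p = 0.899), with a 95% interval from -0.32 to 0.25, which holds the change of E2F4 and not that of E2F1. Its 2 probe sets disagreed in sign, at 0.06 and -0.14. Without control replicate 2 the change was 0.08, and without control replicate 3 it was -0.18. The difference between E2F7 and E2F8 was not tested.

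**Figure D2:**
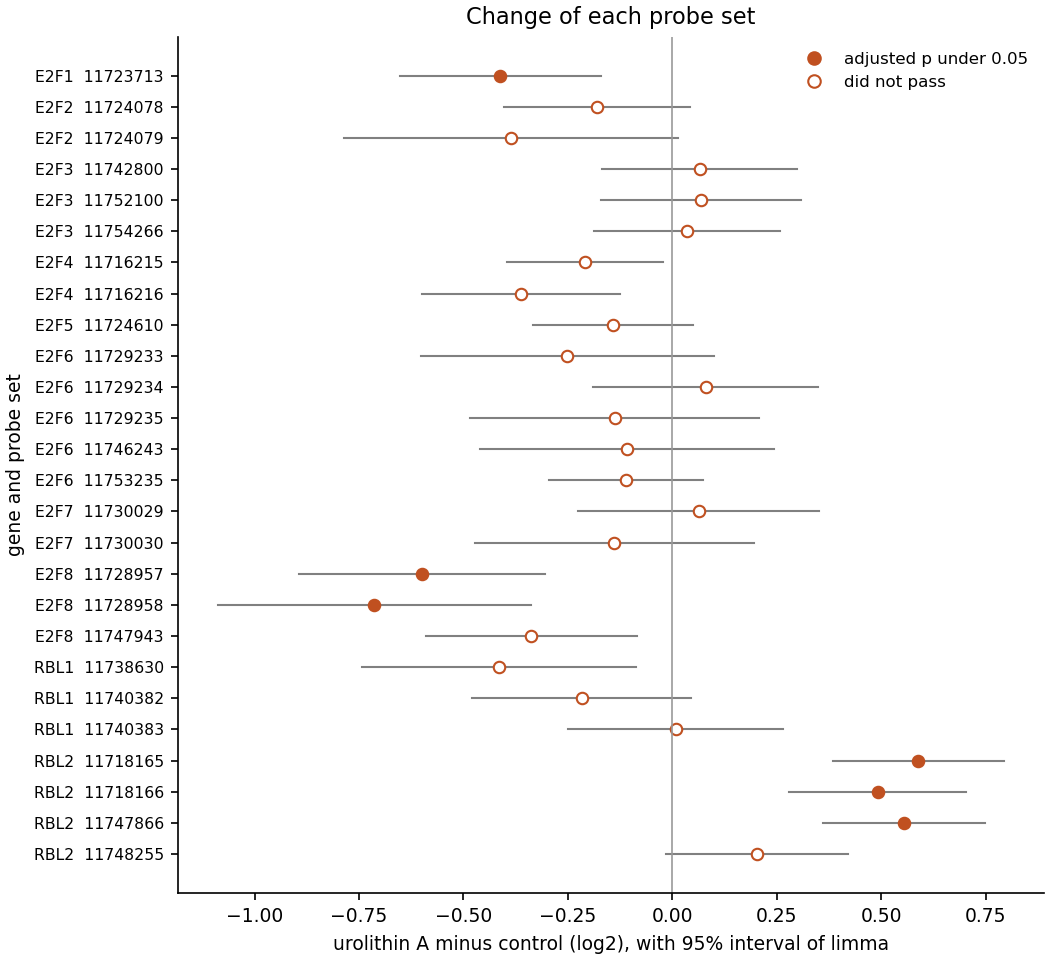
Change of each of the 26 probe sets (horizontal axis, urolithin A minus control in log2, with 95% intervals of limma), named by gene and probe set number (vertical axis), filled where the adjusted p over all 45253 probe sets was under 0.05. Filled are 1 probe set of E2F1 and 2 of E2F8 on the low side and 3 of RBL2 on the high side, while the 3 of E2F3 lie near 0.

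RBL2 was the member with the smallest p and the only one that rose, by 1.37-fold. It read -0.06, 0.04 and -0.04 in the controls and 0.51, 0.41 and 0.39 with urolithin A. The lowest treated array stood well above the highest control. Means were -0.02 ± 0.05 (SD, n = 3) and 0.44 ± 0.06 (SD, n = 3), with a change of 0.46 (SE 0.07, 95% interval 0.31 to 0.61, adjusted p = 0.00472 in limma). Of its 4 probe sets 3 passed, at 0.59, 0.49 and 0.55, and the remaining probe set was at 0.20 (adjusted p = 0.255), with no overlap between groups in any of the 4. The call held without each single array, with adjusted p between 0.0129 and 0.0222, but ended under scaling to the hybridization controls (change 0.49, adjusted p = 0.0668).

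RBL1 had a change of the opposite sign to that of RBL2, and it did not pass. It read -0.05, 0.01 and -0.02 in the controls and -0.06, -0.20 and -0.43 with urolithin A. The groups did not overlap, although urolithin A replicate 1 lay next to the controls and replicate 3 far below them. Its change was -0.21 (SE 0.09, adjusted p = 0.227), and its 3 probe sets were at -0.41, -0.22 and 0.01. Without urolithin A replicate 3 the change was -0.11. Within an array, RBL2 minus RBL1 was between -0.02 and 0.03 in the controls and was 0.57, 0.61 and 0.82 with urolithin A, so every treated array showed more RBL2 relative to RBL1 than any control. This difference is given without a test because the genes were chosen with earlier results known.

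Activators and repressors were compared through their class means. The mean of E2F1, E2F2 and E2F3 was 0.08, 0.01 and -0.19 in the controls and -0.24, -0.21 and -0.28 with urolithin A, a change of -0.21. The mean of E2F4 to E2F8 was -0.02, 0.07 and -0.10 in the controls and -0.22, -0.23 and -0.27 with urolithin A, a change of -0.22. Both class means were thus lower on each treated array than on any control. Activators minus repressors was 0.10, -0.06 and -0.09 in the controls and -0.02, 0.02 and -0.02 with urolithin A, with means of -0.02 ± 0.10 (SD, n = 3) and -0.01 ± 0.02 (SD, n = 3). The treated arrays lay within the control range. Within the classes, E2F1 and E2F2 averaged a change of -0.35 beside the 0.06 of E2F3, and the canonical repressors averaged -0.18 and the atypical ones -0.29. Taking class medians gave activators minus repressors as -0.12. Keeping only probe sets free of _s_, _x_ and _a_ marks gave -0.19 (pooled SD within groups 0.11), with E2F3, E2F5, E2F7 and E2F8 then unmeasured. Leaving out the _s_ and _x_ marks alone, a setting chosen after seeing the data, gave -0.09, with E2F3 unmeasured.

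**Figure D3:**
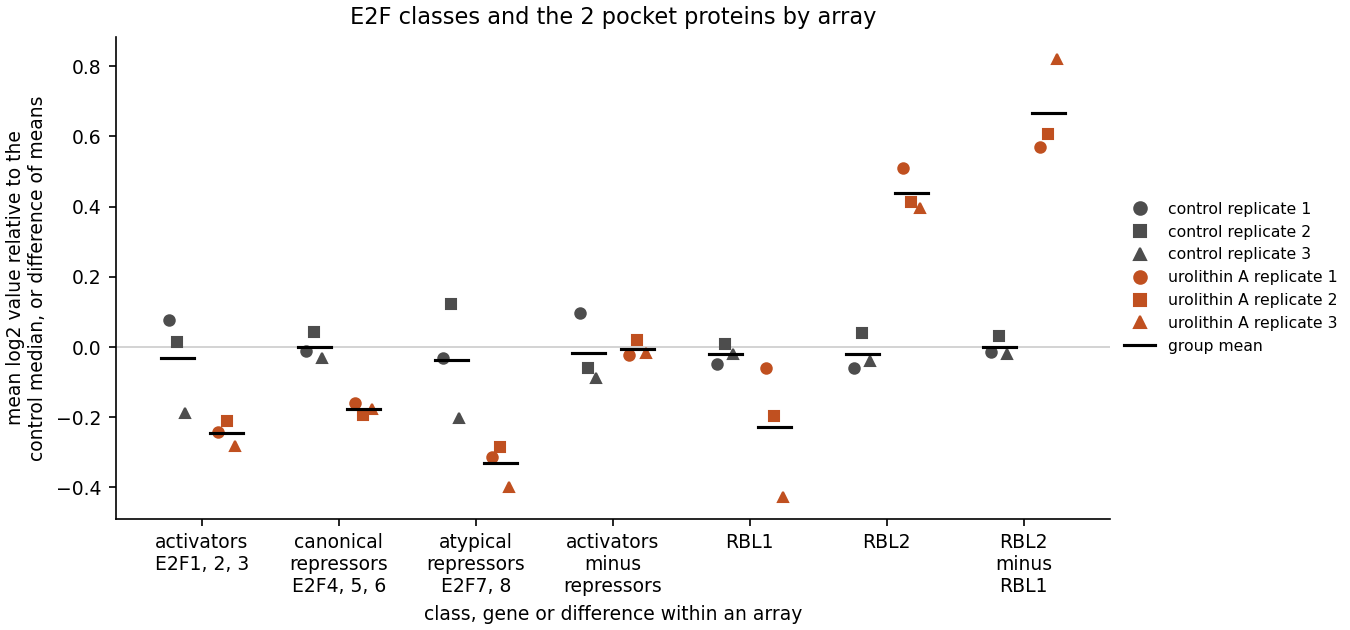
Mean log2 value of the activators, canonical repressors and atypical repressors, the values of RBL1 and RBL2, and 2 differences within an array (vertical axis), by array. Activators minus repressors lies between -0.09 and 0.10 on all 6 arrays, while RBL2 minus RBL1 lies between -0.02 and 0.03 in the controls and between 0.57 and 0.82 with urolithin A.

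With only urolithin A replicate 1 against control replicates 2 and 3, the arrays without raised HLA-DRA, the changes were 0.51 for RBL2, -0.47 for E2F8, -0.44 for E2F1 and -0.27 for E2F4. None passed there (adjusted p = 0.12, 0.154, 0.223 and 0.321), in a fit that assumes the lone treated array to vary as the controls do and in which 33 genes passed as lower and 15 as higher. At an unadjusted p under 0.05, 2 members were lower and 1 was higher in that fit. Without control replicate 1 and urolithin A replicate 3, RBL2 (0.46, adjusted p = 0.0432) and E2F8 (-0.46, adjusted p = 0.045) passed and E2F1 and E2F4 did not (adjusted p = 0.158 and 0.127).

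**Figure D4:**
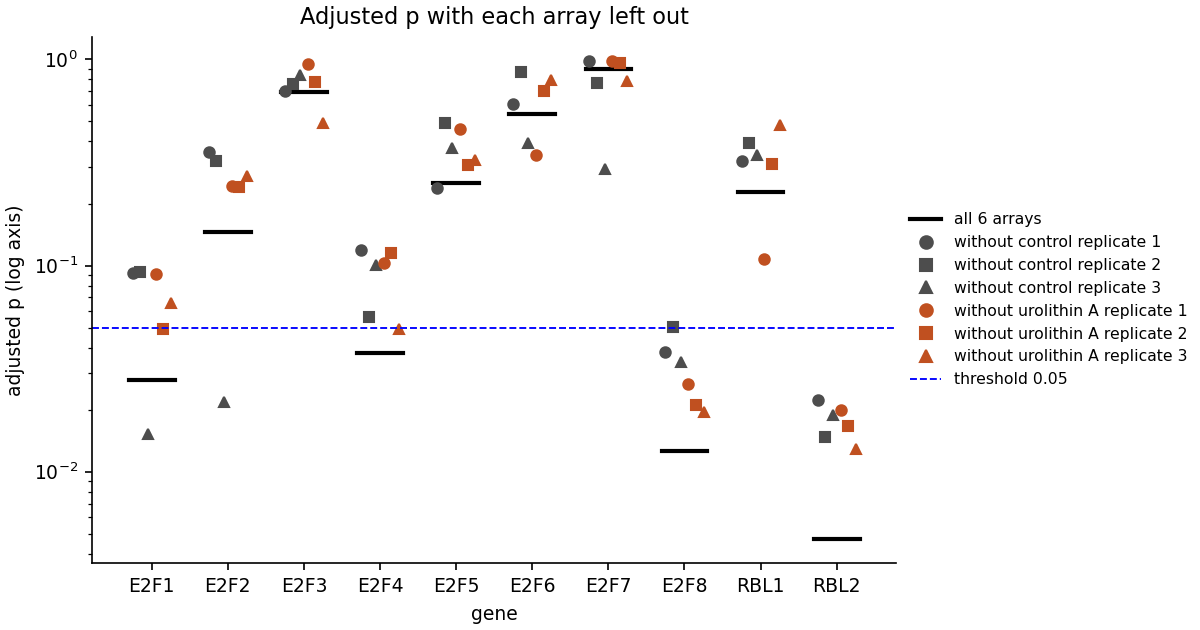
Adjusted p of each member (vertical log axis) with all 6 arrays (black bar) and with each single array left out (symbols), and the threshold of 0.05 (dashed). RBL2 stays below the threshold in all 6 fits lacking an array, E2F8 in 5, E2F1 in 2 and E2F4 in 1, while E2F2 drops below it only without control replicate 3.

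Partners and targets of E2F were taken from lists written with earlier results of these data known, so their counts are descriptions beside the median of all genes, 0.01. Of the 3 DP genes, which supply the partner of E2F1 to E2F6, TFDP1 fell 1.20-fold (change -0.26, SE 0.06, adjusted p = 0.0326). Its arrays were at 0.01, 0.02 and -0.04 in the controls and -0.31, -0.24 and -0.25 with urolithin A, without overlap. Taken alone, 1 of its 5 probe sets passed, at -0.65 (adjusted p = 0.0104), and the only unmarked one was at 0.03. The TFDP1 call was lost without each single array, with adjusted p between 0.0649 and 0.103. TFDP2 had a change of -0.07 (adjusted p = 0.758), which was 0.01 without control replicate 3 and 0.16 from its unmarked probe set, and its 2 probe sets were at -0.30 and 0.16.

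In the MuvB core and its MYB and FOXM1 partners, 8 genes were measured. Of these 1 rose and 1 fell, beside 4.85% and 5.31% of all genes, and 6 stayed short of the threshold (median change -0.04). RBBP4, the histone-binding subunit of MuvB, rose 1.33-fold (change 0.41, SE 0.07, adjusted p = 0.0116). Its arrays ran from -0.13 to 0.01 in the controls and from 0.28 to 0.45 with urolithin A. MYBL2, the B-MYB factor that joins MuvB when DREAM is dissolved, fell 1.64-fold (change -0.72, SE 0.10, adjusted p = 0.00293). It read 0.00, 0.00 and -0.19 in the controls and -0.71, -0.67 and -0.96 with urolithin A, a deeper fall than that of any member. LIN9, LIN37, LIN52 and LIN54, the other MuvB subunits, had changes of 0.02, 0.24, -0.09 and -0.02 that did not pass, and FOXM1, which drives mitotic genes, had one of -0.17 (adjusted p = 0.425). Both calls held without each single array, and that of RBBP4 ended under scaling to the hybridization controls (adjusted p = 0.127) and without both replicate 3 arrays (adjusted p = 0.0668). The unmarked one of the 2 RBBP4 probe sets gave 0.74 against 0.41 for their mean. The rise thus came mostly from that probe set, and the marked one changed little by comparison.

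Among 10 G1 cyclins, kinases and inhibitors, which set the phosphorylation of pocket proteins, 2 rose and 2 fell, beside 4.85% and 5.31% of all genes. The list's median change was 0.02, and 6 of its genes missed the threshold. CDKN1A, the kinase inhibitor p21, rose 2.60-fold (change 1.38, SE 0.10, adjusted p = 0.000315). CDKN1B, the related inhibitor p27, rose 1.25-fold (change 0.33, SE 0.07, adjusted p = 0.0268), a call kept only without urolithin A replicate 2 (adjusted p = 0.0374) and lost without each other single array (adjusted p up to 0.0887). CDK2, the kinase that cyclin E binds, fell 1.49-fold (change -0.58, SE 0.08, adjusted p = 0.00361). CCNE2, a cyclin E gene and known E2F target, fell 1.66-fold (change -0.73, SE 0.17, adjusted p = 0.0278) and lost its call without either of control replicates 1 and 2 or either of treated replicates 2 and 3 (adjusted p up to 0.0945). CCNE1, the other cyclin E gene, had a change of 0.16 (adjusted p = 0.218).

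Of 40 measured S-phase genes known as targets of activator E2Fs, 20 fell and none rose, against 5.31% of all genes lower, with 29 lower and 0 higher at an unadjusted p under 0.05, against 11.5% and 12.5% of all genes. All 40 had a negative change, and the median was -0.42. Per array, the list's median was 0.01, 0.03 and -0.15 in the controls and -0.41, -0.35 and -0.56 with urolithin A. The lowest array of each group was thus replicate 3, the array with the lowest 18S signal, and without both replicate 3 arrays 17 fell. ATAD2, a chromatin ATPase and E2F cofactor, fell 1.90-fold (change -0.93, SE 0.11, adjusted p = 0.00167) and PRIM1, a primase subunit, 1.70-fold (change -0.77, SE 0.08, adjusted p = 0.00112). CDC45 and POLE2, which act at the replication fork, both had changes of -0.85. The S-phase count was 13 without control replicate 1, 12 without control replicate 2, 6 without control replicate 1 and urolithin A replicate 3, and 11 under scaling to the hybridization controls. All genes lower numbered 969 in the main fit and 613, 581, 385 and 312 in these fits, in the same order. They numbered 455 without both replicate 3 arrays.

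Of 30 G2/M genes known as targets of DREAM, 9 fell and none rose, against 5.31% of all genes lower. The median change was -0.32, and at an unadjusted p under 0.05 there were 20 lower and 0 higher, against 11.5% and 12.5% of all genes. KIF20A, a mitotic kinesin, had a change of -0.58 (adjusted p = 0.00765), CDC25C, a phosphatase that opens mitosis, one of -0.37 (adjusted p = 0.00996), the proliferation marker MKI67 one of -0.40 (adjusted p = 0.0105) and the kinetochore motor CENPE one of -0.43 (adjusted p = 0.0156). The G2/M count was 4 on leaving out any of control replicates 1 and 2 and treated replicate 1, 5 without treated replicate 3, 3 without both replicate 3 arrays, 0 without control replicate 1 and treated replicate 3, and 1 under scaling to the hybridization controls. All genes lower numbered 969 in the main fit and 581 to 681 with 1 array left out. In the last 3 of these fits they numbered 455, 385 and 312, in the same order. CENPE lost its call without control replicate 1 (adjusted p = 0.0588) and without treated replicate 1 (adjusted p = 0.0561).

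**Figure D5:**
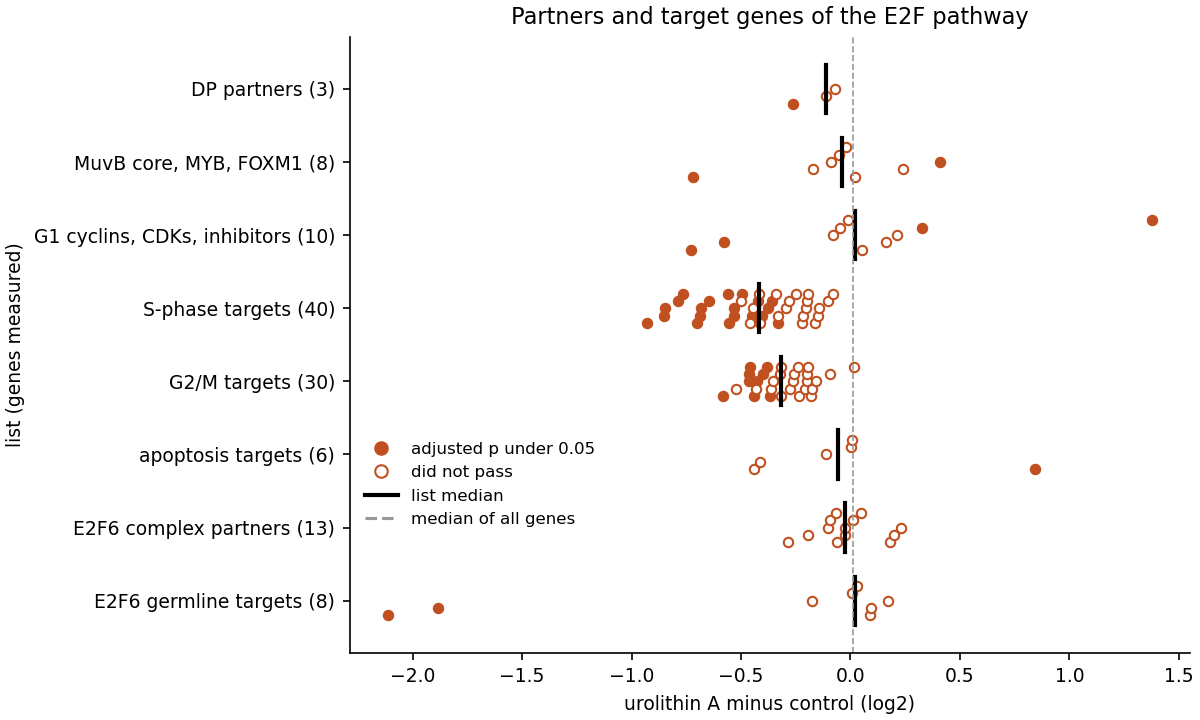
Change of each measured gene (horizontal axis, urolithin A minus control in log2) in 8 lists of E2F partners and targets (vertical axis, number of genes measured in brackets), filled where the gene passed, with list medians as black bars and the median of all genes, 0.01, dashed. The S-phase and G2/M targets sit at medians of -0.42 and -0.32, and the other 6 lists at medians between -0.11 and 0.02.

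Of 6 measured genes known to carry the apoptotic arm of E2F1, BBC3, which codes for the BCL2 antagonist PUMA and is also a p53 target, rose 1.80-fold (change 0.84, SE 0.09, adjusted p = 0.00106), and the other 5 did not pass. TP73 and APAF1, classic targets of E2F1 in this arm, had changes of 0.01 and 0.00, and the list median was -0.06. At an unadjusted p under 0.05, 2 of the 6 were lower and 1 was higher, beside 11.5% and 12.5% of all genes. The lower ones were PMAIP1, which codes for the BCL2 antagonist NOXA (change -0.41, adjusted p = 0.0673), and the stress kinase gene MAP3K5 (-0.44, adjusted p = 0.0737), and with the replicate number as a block 2 of the list passed as lower. None of 13 measured partners of E2F6 in its polycomb complex passed, with a range from -0.29 to 0.23 and a median of -0.03, and at an unadjusted p under 0.05 there were 1 lower and 2 higher, near the 11.5% and 12.5% of all genes. PCGF6, the subunit that defines this complex, had the smallest p, at a change of -0.29 (adjusted p = 0.122). Of 8 germline genes known to be silenced by E2F6 in somatic cells, 2 fell, beside 5.31% of all genes, and the list median was 0.02. These 2 were the alpha-tubulin genes TUBA3E (change -2.11, adjusted p = 0.00037) and TUBA3D (-1.88, adjusted p = 0.000777). Each is read by 1 probe set that carries the mark of cross-hybridization, and the pair are close copies. Their falls show that these probe sets read signal in the control cells, and which transcript gave it was not tested. TUBA3C, a further close copy that is also read by 1 cross-hybridizing probe set, had a change of -0.17 (adjusted p = 0.242). The cohesin genes STAG3 and SMC1B, also silenced by E2F6, had changes of 0.17 and 0.09.

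The genes whose values over the 6 arrays were most like those of RBL2 were APOBEC3H, ANTXR1 and NAPEPLD, with Pearson correlations of 0.9988, 0.9985 and 0.9982. Their changes were 0.68, 0.65 and 0.81, and all share with RBL2 the step between the groups, with urolithin A replicate 1 the highest array. These are the top of 18239 genes over only 6 arrays and describe likeness of values alone. The change of ANTXR1 was 0.26 and did not pass (adjusted p = 0.0566) when the median of its probe sets was taken.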

How the data were processed

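The authors deposited log2 values for 49386 probe sets on 6 arrays, made with RMA per the submitters' processing notes, with no version given. RMA includes quantile normalization, which removes shifts shared by all genes. The control arrays had a median of 0 in each of the 49386 probe sets, so the deposited log2 values had been centred. The base of the logarithm was inferred from RMA and from values between -4.49 and 6.6. Array images, scan dates and batches were not used here.

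Probe sets with a single symbol in the platform annotation were kept, the 93 control probe sets aside, and averaged per gene over 18239 genes, of which 11822 had several probe sets. Limma 3.58.1 in R 4.3.3 was fitted to all genes (two-sided, lmFit with treatment alone, then eBayes), and separately to all 45253 probe sets. With 3 arrays a group, their number limits the precision. The fit was tested on simulated data. Probe set names mark shared transcripts or genes (_s_), cross-hybridization (_x_) and several transcripts of a single gene (_a_), and 8 of the 26 member probe sets carry _s_ or _x_.

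The members, lists and rules were chosen with earlier results of these data known. Named genes were all members, up to 4 genes with the smallest p among those passing in each list or else its smallest p, 5 genes fixed by name (CDKN1A, FOXM1, MYBL2, TFDP1 and TFDP2) and the 3 genes most like the member with the smallest p. Others (the LIN genes, CCNE1, TP73, APAF1, PMAIP1, MAP3K5, TUBA3C, STAG3 and SMC1B) were named after their values were seen, as were HLA-DRA and the comparisons between single members. Alternatives were a replicate block, probe set medians, unmarked probe sets, array scaling, a robust prior, array weights, a threshold of 0.01 and left-out arrays. Added after seeing the data were fits leaving out arrays where HLA-DRA was raised, and fits without probe sets marked _s_ or _x_ alone.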

Additional observations from a re-analysis of the deposited data

How the results depend on the processing

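All 4 called members kept their direction under every alternative that measured them, with changes from -0.51 to -0.35 for E2F1, -0.32 to -0.25 for E2F4, -0.62 to -0.44 for E2F8 and 0.42 to 0.51 for RBL2. Same-numbered arrays correlated at 0.0782, 0.0225 and 0.196 in their deviations from the group means. Control replicate 3 correlated at -0.143 and -0.0679 with urolithin A replicates 1 and 2. Urolithin A replicate 3 correlated at -0.117 and -0.0891 with control replicates 1 and 2. The remaining unlike-numbered arrays, of replicates 1 and 2, correlated at 0.0489 and 0.0728. The main fit did not take the numbers as pairs, and whether the replicate 3 arrays share an effect was not tested. With the replicate number as a block, 3 members were lower and 1 higher. S-phase genes lower were then 26, beside 20 without the block, and G2/M genes lower 12, beside 9. DP partners lower were 0 and apoptosis targets lower were 2 with the block. Median in place of mean probe set values left 0 DP partners lower. With only probe sets free of _s_, _x_ and _a_ marks, 5 members were measured, of which 1 was lower and 0 higher, beside 199 genes lower and 310 higher of 8369. RBL2, the only higher member of the main fit, was not measured there, nor was E2F8. E2F1 kept its call (adjusted p = 0.0495 in limma) and E2F4 lost it (change -0.29, adjusted p = 0.0988). The lists then held fewer measured genes: 5 of 16 S-phase genes were lower, 1 of 5 G1 genes was higher and 0 lower, and 0 were called lower of 3 DP partners, 1 MuvB gene, 6 G2/M and 2 germline genes, and 0 of 2 apoptosis genes higher. There the changes of E2F6 at 0.080, TFDP1 at 0.034 and TFDP2 at 0.16 turned positive, the repressor mean was -0.10 and activators minus repressors -0.19. Without _s_ and _x_ marks, an alternative chosen after seeing the data, activators minus repressors was -0.092, 1 G1 gene was higher, and DP and germline genes lower were 0. Scaling to the hybridization controls left 1 member lower and 0 higher, beside 312 genes lower and 334 higher. It left 11 S-phase and 1 G2/M gene lower, 1 G1 gene higher, and 0 DP partners lower and MuvB genes higher. The mean of these controls was -0.26 in urolithin A replicate 2 and 0.16 in urolithin A replicate 3. Under this scaling the SE of each member was 0.16, where that of RBL2 had been 0.07, and the change of RBL2 was 0.49 in place of 0.46. At an adjusted p under 0.01 there were 0 members lower, 370 genes lower and 272 higher, 8 S-phase and 2 G2/M genes lower, 1 G1 gene in each direction, and 0 DP partners lower and MuvB genes higher. Class medians gave activators minus repressors as -0.12. The 0.01 threshold left every change and adjusted p as in the main fit and only made the call stricter. The unmarked values rest on fewer probe sets. Causes of the other shifts were not tested.

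Leaving out 1 array gave 0 to 3 members lower (0 without control replicate 2), 581 to 681 genes lower and 482 to 628 higher, 0 DP partners lower, 1 to 2 G1 genes lower and 1 to 2 higher, 12 to 22 S-phase and 4 to 11 G2/M genes lower, and 0 to 1 apoptosis targets lower. The change of E2F7 ranged from -0.18 to 0.077, that of E2F6 from -0.17 to -0.039 and that of TFDP2 from -0.18 to 0.012. Without both replicate 3 arrays, 455 genes were lower and 386 higher, 3 G2/M genes lower, 1 G1 gene higher, and 0 DP partners lower and MuvB genes higher. Without control replicate 1 and urolithin A replicate 3, also chosen after seeing the data, 1 member, 385 genes, 6 S-phase, 1 G1, 1 apoptosis, 0 DP and 0 G2/M genes were lower, and 320 genes, 1 G1 and 0 MuvB genes higher. With urolithin A replicate 1 alone against control replicates 2 and 3, 0 members passed in either direction, 33 genes were lower and 15 higher, 1 G1 gene was higher, the change of E2F6 was 0.012, and the other list counts given were 0 except the germline genes. Centring arrays on their medians, a robust prior and array weights moved none of these counts by over 1.5 times.

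Values centred on the controls hold no signal over background, so whether a member was above background could not be judged. With 3 arrays a group, a member that missed the threshold is not shown to be unaffected.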
